A study of Mus musculus with 74 samples.

Results

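The 10 circadian clock genes of the mouse liver followed here were *Clock*, *Arntl* (which encodes BMAL1), *Per1*, *Per2*, *Cry1*, *Cry2*, *Nr1d1*, *Nr1d2*, *Dbp* and *Bhlhe41*. They were chosen by name, as the rows of the RNA-seq table with these symbols, 10 of 14583 genes, and as the peaks that each ChIP-seq table assigns to them, from 32 of 27842 GPS2 peaks in the *Ppara* line to 83 of 115042 NCOR peaks in the same line. ChIP-seq tags were summed over all peaks assigned to a gene, and this sum is called the gene's locus.

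All livers came from C57BL/6 mice of 8 to 12 weeks on normal chow. The column headers of the histone marks in the *Gps2* line also name a fed state, and those of the other tables name no feeding state. In *Gps2* LKO mice the floxed gene was deleted by Cre under the albumin promoter, which acts in hepatocytes, and floxed mice without Cre served as their WT. *Ncor* LKO mice lacked the corepressor NCOR in the liver and *Ppara* KO mice lacked PPARα in the whole body, each line with WT of its own. RNA-seq covered the *Gps2* line with 4 WT and 4 LKO libraries. H3K27ac and H3K4me3 were profiled in 2 WT and 2 *Gps2* LKO livers, and H3K27ac in 3 against 3 of the *Ncor* line. GPS2 was profiled in 3 against 3 of the *Ncor* and *Ppara* lines, NCOR in 3 against 3 of the *Gps2* and *Ppara* lines, and PPARα in 3 against 3 of the *Gps2* and *Ncor* lines and 2 against 2 of the *Ppara* line. GPS2 and RNA polymerase II (Pol II) in the *Gps2* line had 1 library per genotype and no replicate check. Several immunoprecipitations were pooled into a ChIP-seq library. The study's methods call its replicates biological, while the labels tie no library to an animal and give no time of day for any liver. The p-values measure the spread between these samples.

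The liver clock is a feedback loop. The heterodimer of CLOCK and BMAL1 binds E-boxes and activates *Per*, *Cry*, *Nr1d1*, *Nr1d2*, *Dbp* and *Bhlhe41*, and the PER and CRY proteins then inhibit that heterodimer. NR1D1 and NR1D2 (REV-ERBα and REV-ERBβ) are heme receptors that recruit the NCOR corepressor complex, of which GPS2 is a subunit, to ROR response elements (ROREs) and so repress *Arntl*, *Clock* and *Cry1*. In liver the loop times bile acid, lipid and glucose metabolism, and PPARα, the fatty acid receptor, is itself among its outputs.

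RNA libraries held 13.2 to 20.1 M counted reads and ChIP-seq libraries 7.9 to 46.1 M tags (M, 1e6). Normalised tags are tags scaled to a library of 10000000. *Gps2* itself stood at 16.01 ± 0.719 CPM (read counts scaled to library size, SD, n = 4) in WT and 11.2 ± 1.925 in LKO livers (log2 fold change -0.53, SE 0.11, adjusted p = 0.0021). Whole liver holds other cells besides hepatocytes, and the source of the *Gps2* reads left in LKO liver was not tested. RNA fold changes over all 12220 genes tested followed exon length (Spearman rho -0.4): the slope of log2 CPM on log2 length was 0.062 to 0.093 in the WT libraries, 0.074 in LKO library 2 and -0.068 to -0.16 in the other LKO libraries, so library 2 stood apart from its group. RNA values are therefore also given with each library's length trend removed. Markers of liver cells were read at an adjusted p under 0.05, where 23.4% of all genes were called higher and 21.4% lower. Of the stellate and fibroblast markers 6 of 6 rose (summed 150.3 to 157.5 CPM in WT and 278.6 to 285.0 in LKO). So did 6 of 7 Kupffer and macrophage and 3 of 5 cholangiocyte markers. Of 6 endothelial markers 2 rose, or 1 to 4 with 1 library left out. Of 7 hepatocyte markers 3 rose and 2 fell. None of the defining markers was at 0, and the 6 lymphocyte markers were too low to test (summed 1.13 to 1.75 CPM in WT, 1.67 to 2.91 in LKO). The part of these shifts in any clock gene's value was not tested, and a change in cell numbers and a change in RNA per cell cannot be told apart in whole liver.

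In WT liver the table of GPS2 peaks assigned 57 of its 49018 peaks to the 10 genes, and every gene had at least 2. Of the 57, 34 (59.6%) lay within 10 kb of a start site, against 47.1% of all GPS2 peaks. Peaks of NCOR overlapped 42 of them (73.7%, all GPS2 peaks 85.7%), peaks of PPARα 49 (86.0%, all 87.7%) and H3K27ac regions 55 (96.5%, all 87.9%), at a minimum of 1 shared base. NCOR and PPARα peaks together covered 39 (68.4%, all 78.4%). Conversely, 42 of the 62 NCOR peaks at the clock genes (67.7%) and 49 of the 80 PPARα peaks (61.3%) overlapped a GPS2 peak.

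The DNA under these peaks was read from the mm9 genome. On both strands of the 137-base GPS2 peaks the searches were for the nuclear receptor core motif AGGTCA, the RORE ANNTAGGTCA (which contains the core motif, as do the direct repeats), the direct repeats DR1 AGGTCANAGGTCA and RevDR2 AGGTCANNAGGTCA, a looser DR1 AGGNCANAGGNCA, the E-box CACGTG and the D-boxes TTATGTAA and TTATGCAA. The E-box was found in 8 of 57 clock peaks (14.0%, against 3.37% of the 48910 GPS2 peaks of that length), which lay at *Nr1d1*, *Per1*, *Cry2*, *Dbp* and *Bhlhe41*. The RORE was found in 3 (5.26%, against 0.998%), at *Arntl* and *Cry1*. The core motif was found in 12 (21.1%, against 23.9%), the looser DR1 in 2 (3.51%, against 1.45%), and the strict DR1 (0.153% of all), RevDR2 (0.0736%) and both D-boxes (1.0% and 1.13%) in none. A match describes letters and not a bound site.

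Shown here are the stretch of the *Arntl* promoter peak that holds its RORE, and peaks at *Cry1*, *Bhlhe41*, *Cry2* and *Nr1d2*, chosen after their values were seen, that lie in a region called different in one of the comparisons given further on. All are printed 5′ to 3′ on the plus strand of mm9 with motif matches in capitals.
Arntl promoter, 30 bases at chr7:120351042-120351071, RORE: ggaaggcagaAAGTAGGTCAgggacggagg
Cry1 intron, 23136 bases downstream of the start, chr10:84624595-84624731, RORE on each strand: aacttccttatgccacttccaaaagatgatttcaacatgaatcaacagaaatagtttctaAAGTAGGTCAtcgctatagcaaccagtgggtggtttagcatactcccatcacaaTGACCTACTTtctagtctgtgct
Bhlhe41 upstream of the start, chr6:145815160-145815296, E-box: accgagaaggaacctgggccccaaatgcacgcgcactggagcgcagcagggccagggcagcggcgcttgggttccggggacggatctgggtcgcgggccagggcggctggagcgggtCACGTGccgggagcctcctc
Bhlhe41 downstream, 9543 bases past the start, chr6:145804329-145804465, E-boxes: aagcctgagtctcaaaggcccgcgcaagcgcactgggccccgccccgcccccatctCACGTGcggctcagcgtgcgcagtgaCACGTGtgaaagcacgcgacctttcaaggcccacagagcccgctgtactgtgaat
Cry2 upstream of the start, chr2:92286136-92286272, core motif: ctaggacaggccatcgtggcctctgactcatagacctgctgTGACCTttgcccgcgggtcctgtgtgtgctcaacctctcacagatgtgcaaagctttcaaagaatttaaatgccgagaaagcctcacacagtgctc
Nr1d2 intron, 4358 bases downstream, chr14:19067194-19067330, looser DR1: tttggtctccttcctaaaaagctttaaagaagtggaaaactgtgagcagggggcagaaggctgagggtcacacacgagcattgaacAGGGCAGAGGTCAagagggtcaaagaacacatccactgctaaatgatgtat

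**Figure D1:**
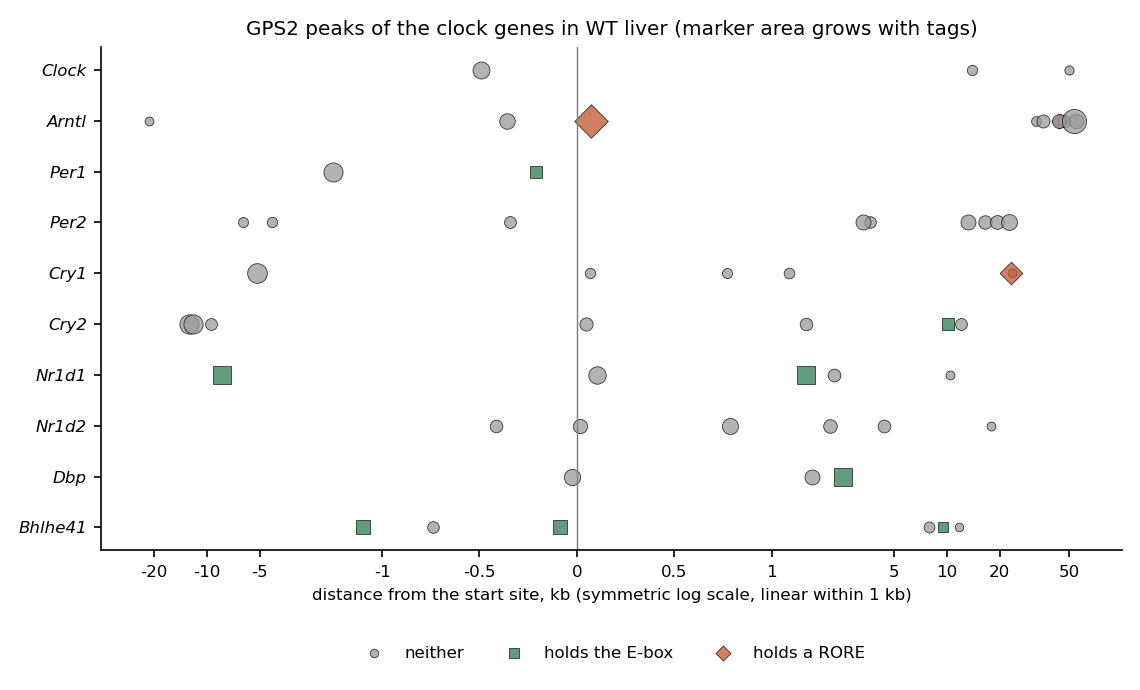
GPS2 peaks of the 10 clock genes in WT liver by signed distance from the start site in kb (symmetric log scale, linear within 1 kb), with marker area growing with normalised tags. Diamonds hold a RORE, squares an E-box without a RORE and grey circles neither, and the RORE peaks sit at *Arntl* and *Cry1*.

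GPS2 signal at these sites was nearly absent from the *Gps2* LKO library. In normalised tags the largest locus was *Arntl* with 238 (369 counted, exact Poisson 95% interval 214 to 264), of which its promoter peak held 60.7 and a peak 53271 bases into the gene 63.2. The LKO library held 9.47 at *Arntl* (14 counted, interval 5.17 to 15.9). *Cry2* went from 145 to 4.73, *Per2* from 144 to 8.11, *Nr1d1* from 115 to 4.73, *Nr1d2* from 96.8 to 2.70, *Cry1* from 96.8 to 4.06, *Bhlhe41* from 67.1 to 5.41, *Per1* from 52.3 to 1.35 and *Clock* from 43.2 to 0.676. *Dbp* had 124 counted tags in WT and no tag in LKO, at least 39.4-fold lower against a floor of 3 counts per library. Over the 10 loci the LKO library kept 0.0382 of the WT level (interval 0.0291 to 0.0494), against 0.0439 over all peaks of the table. These intervals cover counting error only, and this comparison had no replicate.

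RNA-seq asked whether loss of GPS2 changed clock gene expression. Of the 9 members high enough to test, 2 rose and 4 fell in *Gps2* LKO liver at an adjusted p under 0.05, in a table in which 44.8% of all genes were called (23.4% higher and 21.4% lower). With the length trend removed, 4 of 9 rose and 4 fell, against 49.7% of all genes (40.9% higher and 8.81% lower). *Bhlhe41* and *Clock* were lower, *Per2* and *Nr1d1* lower by less, and *Cry1* higher, each without overlap between the 4 WT and 4 LKO libraries. The median over the 9 was -0.23 on the log2 scale, against 0.03 over all genes. With the length trend removed it was 0.06, against 0.175 over all genes.

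*Bhlhe41* (DEC2), a repressor that competes for E-boxes, had 4.22, 3.51, 4.48 and 4.84 CPM in the WT libraries and 0.896, 1.42, 1.30 and 0.988 in the LKO libraries. All 4 LKO libraries lay far below the lowest WT library. Its log2 fold change was -1.84 (SE 0.18, adjusted p = 4.7e-06), and -1.49 (SE 0.18) with the length trend removed. It rested on 59 to 77 reads in a WT library and 12 to 28 in an LKO library.

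*Clock*, whose protein pairs with BMAL1, stood at 31.0, 32.9, 31.4 and 31.2 CPM in WT and 11.9, 18.4, 13.6 and 12.5 in LKO. LKO library 2 was the highest of its group and still well under the WT libraries. The log2 fold change was -1.15 (SE 0.12, adjusted p = 4.9e-06). *Clock* has the longest counted exons of the members (9925 bases), and with the length trend removed the value was -0.65 (SE 0.07, adjusted p = 3.9e-07). *Arntl*, its partner, was near the limit of detection, with 15, 11, 15 and 8 reads in WT and 7, 11, 6 and 6 in LKO. It did not pass the filter on low counts. Without the filter its value was -0.61 (SE 0.31, adjusted p = 0.14), and the groups overlapped.

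Among the inhibitors of the heterodimer, the members went different ways. *Per2* had 115.1, 118.4, 114.5 and 116.4 CPM in WT and 64.5, 93.8, 75.65 and 65.5 in LKO. LKO library 2 was again the nearest to WT, and the groups did not overlap (log2 fold change -0.63, SE 0.10, adjusted p = 0.00029). With the length trend removed *Per2* was at -0.27 (SE 0.05, adjusted p = 0.00029). *Cry1*, the stronger of the CRY repressors, had 12.5, 12.3, 12.05 and 11.8 CPM in WT and 18.15, 16.5, 18.4 and 16.3 in LKO. Every LKO library lay above every WT library, with a log2 fold change of 0.51 (SE 0.08, adjusted p = 0.00028) that was 0.68 (SE 0.08) with the length trend removed.

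*Per1* and *Cry2* did not pass the test. *Per1* ran from 62.1 to 71.2 CPM in WT and from 47.4 to 68.8 in LKO (log2 fold change -0.23, SE 0.11, adjusted p = 0.099). Without LKO library 2 it was called lower (-0.36, adjusted p = 0.001). After removal of the length trend it was at 0.06 (SE 0.07). *Cry2* ran from 41.4 to 47.0 in WT and 34.5 to 49.1 in LKO (-0.05, SE 0.10, adjusted p = 0.70). With the length trend removed it passed on the other side of 0, at 0.20 (SE 0.08, adjusted p = 0.045). The median of all genes in that fit was 0.175.

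The REV-ERB genes differed from each other. *Nr1d1* had 61.0, 58.6, 57.35 and 55.8 CPM in WT and 39.4, 47.1, 36.55 and 38.7 in LKO. The groups did not overlap, and the log2 fold change was -0.52 (SE 0.08, adjusted p = 0.00025), or -0.37 (SE 0.07) with the length trend removed. *Nr1d1* overlaps *Thra* on the other strand, and reads of the pair cannot be told apart in counts made without strand. *Nr1d2* had 82.3, 83.15, 87.2 and 89.0 CPM in WT and 82.9, 87.5, 88.2 and 82.1 in LKO. The groups lay over each other at a log2 fold change of 0.00 (SE 0.06, adjusted p = 0.97). With the length trend removed it was called higher, at 0.30 (SE 0.06, adjusted p = 0.00047), where the median of all genes was 0.175.

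*Dbp*, a PAR bZIP activator of many liver outputs, had 135.3, 128.0, 119.9 and 121.0 CPM in WT and 162.9, 120.1, 164.3 and 159.2 in LKO. LKO library 2 lay among the WT libraries and the other LKO libraries lay above all of them. The log2 fold change was 0.27 (SE 0.09, adjusted p = 0.031), and 0.26 (SE 0.07, adjusted p = 0.0041) with the length trend removed. The call held in 2 of the 8 fits that left out 1 library each, with adjusted p from 1.9e-05 without LKO library 2 to 0.094. *Bhlhe41*, *Clock*, *Per2*, *Nr1d1* and *Cry1* were called in all 8.

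Per kilobase of exon, *Dbp* was the most abundant member in WT liver (75.1 ± 4.26 CPM per kb, SD, n = 4). *Nr1d1* (21.0 ± 0.793) and *Per2* (19.9 ± 0.297) followed with overlapping ranges. Below them came *Nr1d2* (18.4), *Per1* (14.2), *Cry2* (10.8), *Cry1* (4.03), *Clock* (3.19), *Bhlhe41* (0.696) and *Arntl* (0.255), none of which overlapped its neighbour. In LKO liver *Dbp* was at 90.4 ± 12.6, *Nr1d2* at 18.4 ± 0.669 and *Nr1d1* at 14.6 ± 1.67, so that the level of *Nr1d1* lay under that of *Nr1d2*. Over the 8 libraries, the genes outside all lists whose log2 CPM followed *Dbp* most closely by Pearson r among 8494 candidates were *D10Jhu81e* (0.995), *Psmg3* (0.988) and *H2-Q10* (0.988). For *Arntl* they were *Ubqln2* (0.936), *2310022B05Rik* (0.935) and *Lgals3bp* (0.925), a description that rests on 6 to 15 reads a library and on libraries that share the length trend.

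**Figure D2:**
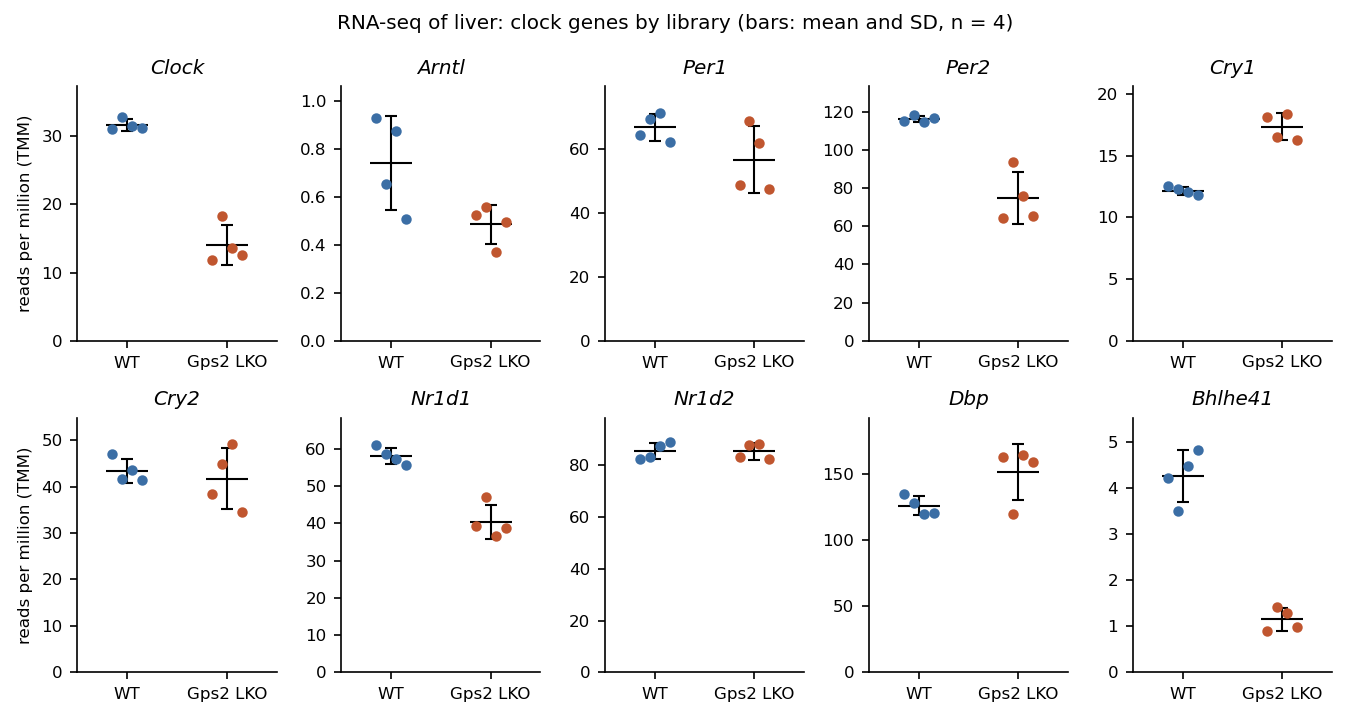
RNA-seq CPM of the 10 clock genes in each of the 4 WT and 4 *Gps2* LKO libraries, with the mean and SD of each group and every axis starting at 0. *Bhlhe41*, *Clock*, *Per2* and *Nr1d1* sit lower and *Cry1* higher in LKO without overlap, and for *Dbp* 1 LKO library at 120.1 CPM sits among the WT libraries.

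**Figure D3:**
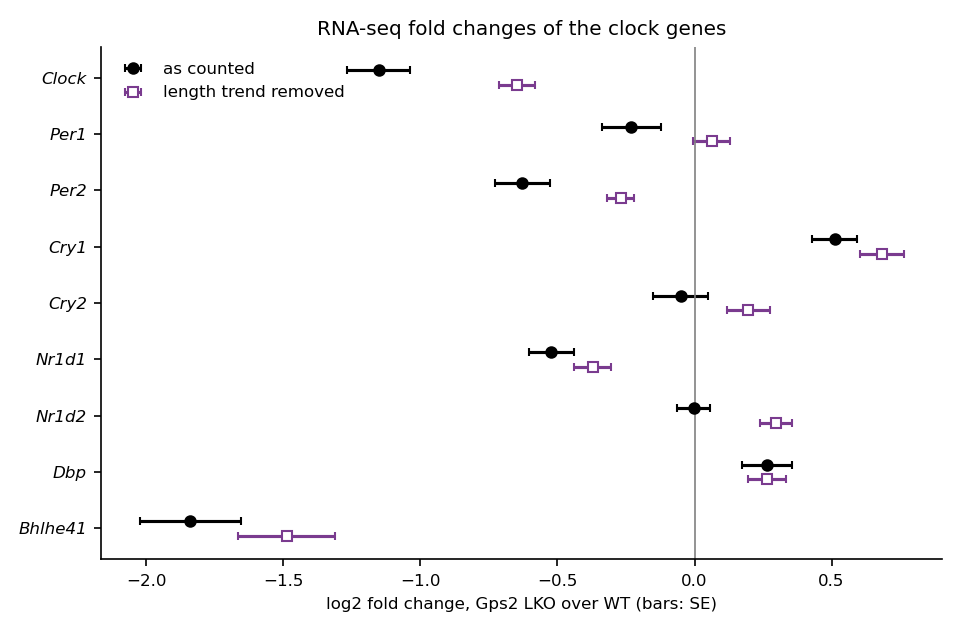
Log2 fold changes of the 9 tested clock genes in *Gps2* LKO over WT liver (bars, SE), as counted (filled) and with the trend against exon length removed (open squares). Removing the trend moves *Clock* from -1.15 to -0.65 and *Nr1d2* from 0.00 to 0.30, and leaves *Dbp* at 0.26. The median of all genes moves from 0.03 to 0.175.

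Other clock genes and clock outputs were read in the same table. Of 15 other clock genes tested, 2 rose and 2 fell, against 23.4% of all genes higher and 21.4% lower. Without LKO library 2, 8 were called, 3 higher and 5 lower. In that fit 3425 of all 12315 genes were called higher and 3545 lower. *Hlf*, a PAR bZIP relative of *Dbp*, fell from 125.0 ± 2.88 to 68.1 ± 7.09 CPM (log2 fold change -0.87, SE 0.07, adjusted p = 9.0e-07). *Bhlhe40*, the paralog of *Bhlhe41*, rose from 171.3 ± 2.64 to 219.9 ± 7.15 (0.36, SE 0.05, adjusted p = 0.00016), opposite in sign to *Bhlhe41*. On the log2 scale *Timeless* rose by 1.07 (SE 0.20, from 1.92 to 4.01 CPM), while *Fbxw11*, a subunit of the ligase that degrades PER, fell by 0.39. *Hlf*, *Bhlhe40* and *Timeless* kept their direction with the length trend removed (-0.52, 0.54 and 1.345). *Fbxw11* was then at -0.12 (adjusted p = 0.15) and was not called. With the length trend removed, 10 of the 15 rose and 1 fell, against 40.9% and 8.81% of all genes. *Npas2*, the paralog of *Clock*, was too low to test.

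Of 13 clock output genes, 7 rose and 3 fell, beside the 23.4% and 21.4% of all genes. *Alas1*, the rate-limiting enzyme of heme synthesis, rose from 936.4 ± 12.5 to 1549 ± 38.6 CPM (log2 fold change 0.73, SE 0.05, adjusted p = 9.4e-08), and *Por*, the reductase that feeds electrons to cytochrome P450 enzymes, by 0.58 (SE 0.06) on the log2 scale. *Nr1i3* (0.47), *Tfrc* (0.47), *Lpin1* (0.34), *Wee1* (0.31) and *Usp2* (0.18) also rose. *Elovl3*, a fatty acid elongase, fell from 53.1 ± 2.49 to 8.40 ± 1.62 CPM (-2.68, SE 0.11, adjusted p = 4.6e-10). *Cyp7a1*, the rate-limiting enzyme of bile acid synthesis, fell by 0.46 (SE 0.08) and the lipase *Pnpla2* by 0.25 (SE 0.07) on the log2 scale. With the length trend removed *Cyp7a1* was at -0.21, and *Pnpla2* at -0.10 (adjusted p = 0.14) was not called. In that fit 8 of the 13 rose and 2 fell, against 40.9% and 8.81% of all genes. The members and other clock genes, whose calls are given above, were also counted by response element. Of 3 tested genes of the BMAL1 arm 1 (*Cry1*) rose and 1 (*Clock*) fell. Of 12 in the PER arm 2 rose and 4 fell, or 6 and 4 with the length trend removed. All genes stood at 23.4% and 21.4%, or 40.9% and 8.81% with the trend removed.

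Of 6 corepressor and receptor genes that act on these sites, none rose and 4 fell, where 21.4% of all genes were called lower (8.81% with the length trend removed). *Ncor1* was at 112.1 ± 6.03 CPM in WT and 71.98 ± 18.6 in LKO (log2 fold change -0.63, SE 0.13). *Ppara* (-0.39, SE 0.12) and *Tbl1x* (-0.58, SE 0.17) were called too, beside *Gps2*. With the length trend removed *Gps2* and *Tbl1x* remained lower, *Tbl1xr1* was higher, and *Ncor1* was at -0.09 (adjusted p = 0.16) and *Ppara* at 0.04 (adjusted p = 0.53).

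H3K27ac, a mark of active promoters and enhancers, was next compared in *Gps2* LKO and WT liver. The *Bhlhe41* locus had 687 and 663 normalised tags in the WT libraries and 389 and 330.5 in the LKO libraries. Both LKO libraries lay below both WT libraries, at a log2 fold change of -0.91 (SE 0.10, adjusted p = 0.011). It was the 1 call among 9 clock loci, in a table with 1.84% of all loci called, and its direction was that of its RNA. Its promoter region, which holds the upstream E-box peak printed above, went from 522 and 493 to 287 and 236 (-0.96, SE 0.11, adjusted p = 0.012). The region 9568 bases past the start, with the other printed E-box peak, went from 165 and 170 to 102.0 and 94.4 (-0.77, SE 0.11, adjusted p = 0.025). These were the 2 called of 22 clock regions, against 1.42% of all. Each fit without 1 library leaves 1 library in a group, so these fits could not test the calls. Over the 4 such fits the locus value ran from -1.03 to -0.79.

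The other loci did not pass the test. *Cry1* had 613.5 and 574 normalised tags in WT and 801 and 715 in LKO (log2 fold change 0.35, SE 0.09, adjusted p = 0.10). *Arntl* had 499.6 and 537 against 632 and 609 (0.26, SE 0.08, adjusted p = 0.16). *Per2* had 4086 and 3755 against 3322 and 3184 (-0.27, SE 0.08, adjusted p = 0.17). In each of these 3 the LKO libraries lay on one side of the WT libraries, as they did at *Nr1d1*, *Cry2*, *Per1* and *Nr1d2*. With 2 libraries a group such separation by itself says little. *Nr1d1* (-0.18), *Cry2* (-0.17), *Per1* (-0.11), *Nr1d2* (0.10) and *Clock* (0.02) were closer to 0, the last with overlapping groups. The *Clock* promoter region held 478.5 normalised tags in WT and 492 in LKO, beside the RNA value of -1.15. *Dbp* had no H3K27ac or H3K4me3 region assigned. A region of 16638 bases over *Dbp* is assigned to its neighbour *Sphk2*, and, picked after its values were seen, it held 2428 and 2527 normalised H3K27ac tags in WT and 2268 and 2378 in LKO.

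H3K4me3, a mark of active promoters, gave no call by edgeR among 9 clock loci (1.08% of all loci called) or 14 regions (0.916%), and none by DESeq2. Of the 9 loci, 2 had an unadjusted p under 0.05, against 1281 of all 15157 loci. Those 2 loci were *Nr1d1*, with 1129 and 1288 normalised tags in WT and 935 and 1071 in LKO (-0.27, SE 0.08, adjusted p = 0.23), and *Bhlhe41*, with 780 and 738 against 660 and 651 (-0.21, SE 0.07, adjusted p = 0.23). The other loci ranged from -0.03 to 0.01. Pol II, in 1 library per genotype, was at 136 normalised tags in WT and 178 in LKO at *Arntl* (ratio 1.32, exact 95% interval 1.07 to 1.63), 390 and 483 at *Per1* (1.24, 1.09 to 1.40), and 103 and 95.9 at *Clock* (0.931, 0.714 to 1.21). *Bhlhe41* was at 150.1 and 128 (0.851, 0.680 to 1.06). Over the 10 loci the ratio was 1.07, against 1.06 over all Pol II peaks.

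For H3K27ac in *Ncor* LKO liver no clock locus of 9 was called by edgeR, with 3.0% of all loci called. Of the 9, 6 had an unadjusted p under 0.05, against 2759 of all 17052 loci. DESeq2 called 4, all higher, where 910 of all 16719 loci were called higher and 386 lower. *Nr1d2* was nearest, with 652, 647 and 658 normalised tags in WT and 1031, 801 and 854 in LKO (log2 fold change 0.46, SE 0.10, adjusted p = 0.0502). *Cry1* had 477, 523 and 461 in WT and 965, 569.8 and 631 in LKO (0.57, SE 0.18, adjusted p = 0.13), and *Arntl* 457, 454 and 503 against 904, 578 and 556 (0.53, SE 0.17, adjusted p = 0.15). In all 3 every LKO library lay above every WT library, and LKO library 1 was the highest. *Clock* was at 0.37 (SE 0.13, adjusted p = 0.18) and *Nr1d1* at 0.23 (SE 0.10, adjusted p = 0.30), both also without overlap. *Per1* (-0.16) and *Per2* (-0.20) had LKO libraries below WT, and *Bhlhe41* (-0.02) and *Cry2* (0.10) overlapped.

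Of 34 clock regions of H3K27ac, 4 were called in *Ncor* LKO, all higher, with 3.12% of all regions called. They lay inside *Arntl* and *Cry1*. No region of *Clock*, named above with them as a target of REV-ERB repression, was called. Any part of REV-ERB in these calls was not tested. The intronic *Cry1* region 22690 bases past the start, which contains the peak with a RORE on each strand, had 21.5, 18.7 and 17.7 normalised tags in WT and 144.9, 48.3 and 38.4 in LKO (2.00, SE 0.44, adjusted p = 0.037). LKO library 1 lay far above the others, and without it the value was 1.17 (adjusted p = 0.0146). Another *Cry1* region at 26397 bases had 6.36, 6.95 and 4.47 against 27.8, 14.6 and 11.3 (1.60, SE 0.35, adjusted p = 0.038). The *Arntl* region at 33690 bases had 65.4, 57.1 and 59.3 against 162.1, 121.0 and 102.8 (1.09, SE 0.17, adjusted p = 0.011). A small one at 7552 bases had 4.24, 3.60 and 3.80 against 10.9, 8.78 and 8.89 (1.29, SE 0.24, adjusted p = 0.019). The *Arntl* promoter region with the RORE stood at a mean of 149.9 in WT and 275.5 in LKO (0.88, adjusted p = 0.055). The count of 4 became 1 without WT library 1, 0 without WT library 2 or 3, and 9 without LKO library 2.

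**Figure D4:**
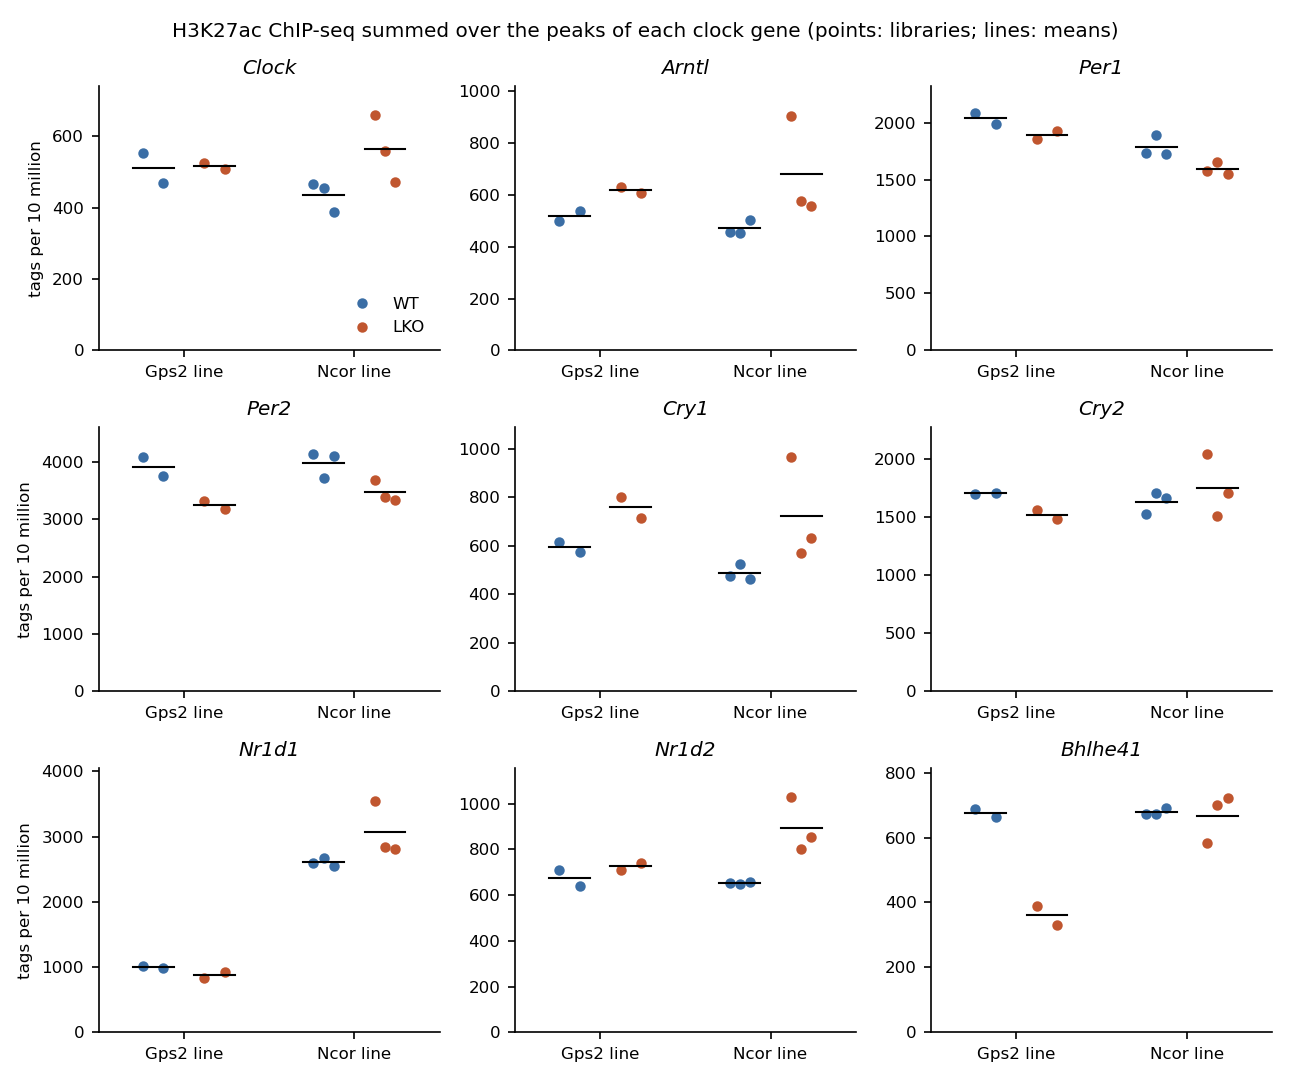
Normalised H3K27ac tags summed over the regions of 9 clock genes, by library, in WT and LKO liver of the *Gps2* and *Ncor* lines, with group means as lines and every axis starting at 0. *Bhlhe41* lies lower in both *Gps2* LKO libraries, and *Arntl*, *Cry1* and *Nr1d2* lie higher in all 3 *Ncor* LKO libraries. The *Gps2* line was counted over its own regions, so its levels are not comparable with those of the *Ncor* line.

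GPS2 at clock loci was compared in *Ncor* LKO liver. All 10 loci had lower means, from -0.75 (*Arntl*) to -1.74 (*Cry1*), with a median of -1.26 against -1.09 over all loci. No clock locus or peak was called by edgeR (0.187% of all loci and 0.0338% of all peaks called) and no locus by DESeq2. DESeq2 called 2 clock peaks, both higher, where 388 of all 42093 peaks were called higher and 62 lower. An unadjusted p under 0.05 was found for 6 clock loci, against 6393 of all 14433 loci. *Cry1* had 107.8, 64.9 and 25.2 normalised tags in WT and 20.7, 21.8 and 16.6 in LKO, and *Nr1d1* 191.2, 172.1 and 70.7 against 48.8, 51.4 and 50.4. *Arntl* had 276.9, 225.3 and 102.9 against 127.2, 126.4 and 107.0, and the groups overlapped. In each, WT library 3 was the lowest of its group. Only 3.07% of its tags lay in GPS2 peaks, against up to 8.23% in the other WT libraries and 2.45 to 3.15% in LKO. Without it all 10 loci were called, all lower, and 41 of the 66 clock peaks, 39 of them lower. In that fit 10748 of all 14433 loci and 33248 of all 56277 peaks were called lower. With TMM scaling, which sets the typical peak to no change, 6 clock peaks were called, all higher. Over all 56278 peaks TMM called 999 higher and 258 lower.

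GPS2 in *Ppara* KO liver was also lower at all 10 clock loci, from -1.03 (*Arntl*) to -0.08 (*Dbp*), with a median of -0.82 against -0.89 over all loci. No locus (0.439% of all) or peak (0.273%) was called by edgeR or DESeq2. Of the loci, 2 (*Arntl* and *Cry1*) had an unadjusted p under 0.05, against 3386 of all 11382 loci. *Arntl* had 74.9, 80.6 and 135.4 normalised tags in WT and 55.3, 58.3 and 28.8 in KO, without overlap. *Cry1* had 65.2, 49.4 and 129.3 against 43.0, 49.9 and 27.4. WT library 3 was the highest and KO library 3 the lowest at both. The share of tags in GPS2 peaks ran the same way, from 2.42 to 4.39% in WT with library 3 highest and from 1.07 to 2.06% in KO with library 3 lowest.

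NCOR in *Gps2* LKO liver did not separate from WT at any clock locus. Values ran from -0.54 (*Bhlhe41*) to -0.02 (*Cry2*), and none was called by edgeR (0.0295% of all loci and 0.0173% of all peaks) or DESeq2. None of the loci and 2 of the 62 peaks had an unadjusted p under 0.05, against 2253 of all 80813 peaks. *Arntl* had 278.1, 281.9 and 144.9 normalised tags in WT and 236.6, 319.2 and 134.0 in LKO, and *Nr1d1* 212.0, 198.7 and 98.5 against 149.7, 206.1 and 88.4. Library 3 was the lowest of its group at both. For *Per2*, the strongest NCOR locus with 321.9, 359.0 and 264.9 in WT and 289.1, 378.8 and 183.3 in LKO, the groups overlapped as well. With standard errors of 0.40 to 0.43, these libraries could not show a small difference.

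NCOR in *Ppara* KO liver had lower means at all 10 loci, with a median of -0.37 against -0.31 over all loci. None was called by edgeR (6.02% of all loci) or DESeq2. Of the 10, 3 had an unadjusted p under 0.05, against 4236 of all 18368 loci. *Clock* was the farthest from 0, with 99.2, 93.7 and 114.6 normalised tags in WT and 71.1, 76.1 and 47.0 in KO (-0.66, SE 0.24, adjusted p = 0.069). *Nr1d1* had 302.3, 328.5 and 316.0 against 242.0, 250.4 and 166.5 (-0.52, SE 0.20, adjusted p = 0.092). KO library 3 was the lowest at both, and the groups did not overlap. Of 83 peaks 2 were called, both lower (2.64% of all peaks). The *Cry1* peak with the RORE on each strand had 108.1, 84.3 and 108.7 against 89.9, 68.7 and 33.4 (-0.66, SE 0.20, adjusted p = 0.049), with overlapping groups. A *Bhlhe41* peak 11816 bases past the start had 13.8, 6.02 and 14.3 against 4.09, 2.69 and 2.85 (-1.82, SE 0.51, adjusted p = 0.021). Neither was called with TMM scaling, with DESeq2 or without WT library 1, WT library 3, KO library 2 or KO library 3.

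PPARα in *Gps2* LKO liver was higher at all 10 clock loci on the scale of total tags. The 3 WT libraries differed by less than the sampling noise, and whether they are separate livers or 1 library deposited 3 times cannot be told from these data. They were counted as 1 sample, so the spread comes from the LKO libraries. By this fit 7 of 10 loci rose, in a table in which 43.4% of all loci were called, and the members' median of 0.44 lay under the 0.56 of all loci. *Cry1* had 135.4, 141.5 and 140.9 normalised tags in WT and 219.5, 241.6 and 214.6 in LKO (0.69, SE 0.20, adjusted p = 0.0040). *Arntl* had 331.6, 346.7 and 326.9 against 526.3, 552.3 and 519.5 (0.66, SE 0.17, adjusted p = 0.0010). Both loci lay higher in every LKO library. *Nr1d2* (0.56), *Dbp* (0.53), *Per2* (0.45), *Nr1d1* (0.43) and *Cry2* (0.37) were called as well, while *Clock* (0.31), *Per1* (0.29) and *Bhlhe41* (0.19) were not. With TMM scaling or DESeq2, which set the typical locus to no change, none was called and, of the 7, *Cry2*, *Nr1d1*, *Per2* and *Dbp* were below 0. The share of tags in PPARα peaks was 19.2 to 21.9% in WT and 28.9 to 32.1% in LKO. Of 80 peaks 1 was called (2.52% of all). It lay at the *Nr1d1* promoter, 11 bases past the start, with 49.4, 50.3 and 57.5 in WT and 117.2, 140.2 and 110.8 in LKO (1.21, SE 0.30, adjusted p = 0.013). This call was lost without LKO library 2 (1.11, adjusted p = 0.113), with TMM scaling (0.61) and with DESeq2 (0.62).

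PPARα in *Ncor* LKO liver gave no call by edgeR at clock loci (0.104% of all) or peaks (0.196%), none by DESeq2, and no locus at an unadjusted p under 0.05. Values ran from -0.17 (*Dbp*) to 0.33 (*Cry1*), with a median of 0.09 against 0.10 over all loci. *Cry1* had 170.3, 187.4 and 71.8 normalised tags in WT and 159.7, 152.0 and 229.2 in LKO, and the groups overlapped. WT library 3, with 8.96% of its tags in peaks against up to 19.3%, was the lowest.

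PPARα in *Ppara* KO liver was measured without the receptor that the antibody targets. All 10 clock loci had lower means, and 7 fell, against 56.8% of all loci. The median was -1.33 against -1.71 over all loci. *Clock* went from 16.3 and 19.9 normalised tags in WT to 2.06 and 2.93 in KO (-2.82, SE 0.52, adjusted p = 3.4e-05), and *Cry2* from 62.3 and 69.6 to 22.0 and 10.3 (-2.01, SE 0.29, adjusted p = 1.1e-06). Every KO library lay below every WT library at both loci, as it did at all 10 clock loci. *Dbp* had 17.7 and 21.4 against 12.4 and 16.9 (-0.42, adjusted p = 0.32), and *Per1* (-0.55, adjusted p = 0.37) and *Bhlhe41* (-1.001, adjusted p = 0.07) did not pass either. The *Cry2* peak printed above went from 21.2 and 22.9 to 2.75 and 2.20 (-3.11, SE 0.43, adjusted p = 9.4e-05). The *Nr1d2* peak with the looser DR1 went from 5.66 and 10.7 to 1.37 and 2.20 (-2.14, SE 0.75, adjusted p = 0.043). Of 52 peaks 8 were called, all lower (27.6% of all peaks). Leaving out a library leaves 1 in its group, so those fits could not test the calls. With TMM scaling or DESeq2, *Arntl*, *Nr1d1* and *Per2* turned above 0 and no locus was called lower, and with TMM *Dbp* was called higher (1.28, adjusted p = 0.0096). The share of tags in peaks was 2.14 to 2.44% in WT and 0.58 to 0.65% in KO.

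**Figure D5:**
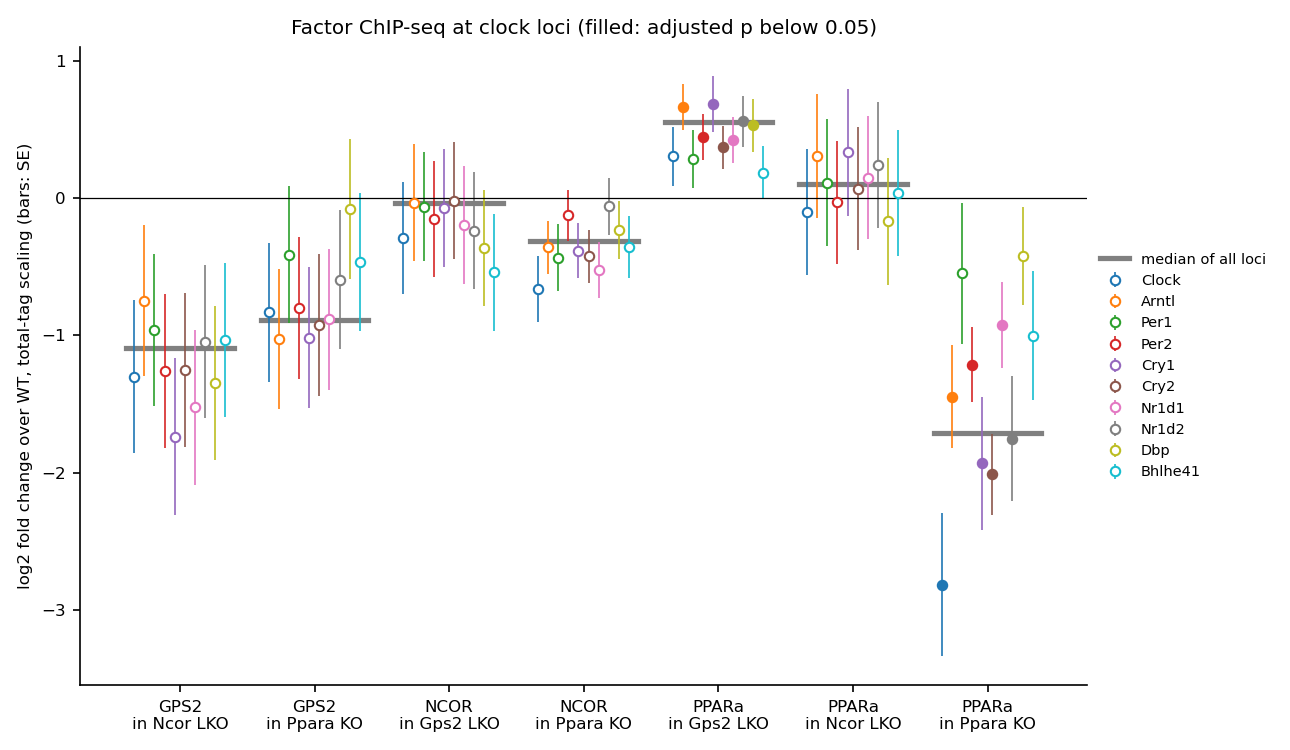
Log2 fold changes over WT of GPS2, NCOR and PPARα tags summed at each of the 10 clock loci (bars, SE), scaled to total tags, with calls filled and the median of all loci as a grey bar. The members lie around the median of all loci in each comparison, at -1.09 for GPS2 in *Ncor* LKO and 0.56 for PPARα in *Gps2* LKO.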

How the data were processed

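The deposited RNA-seq table holds counts of reads per gene. Per the paper's methods the authors aligned reads with HISAT2 and counted exons with HOMER, and the submitters' processing notes also name featureCounts and GRCm38. The deposited ChIP-seq tables hold counts of tags per peak, over peaks that the authors merged across libraries, aligned to mm9 with Bowtie and annotated with HOMER. The score column of the authors' deposited peak lists was not used, only the positions. Exon lengths came from the deposited RNA table. Printed coordinates are mm9.

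RNA counts were filtered with filterByExpr, TMM-scaled and tested with edgeR (4.0.16) quasi-likelihood fits over all genes, in R (4.3.3). Tags, per peak or summed per gene, were scaled to total tags and tested likewise over all peaks or loci of each table. P-values were adjusted by the Benjamini-Hochberg method over every feature tested and called under 0.05. Where groups are said not to overlap, the share of all features without overlap is not given. The standard error of a log2 fold change is its size divided by the square root of F. Mark tables were limited to peaks overlapping the lists of at least 2 of the 4 libraries of that mark. The length trend was removed per library with a smooth of span 0.3. GPS2 and Pol II in the *Gps2* line have 1 library per genotype and got exact Poisson intervals (95%). Intervals and floors cover counting error only, since reads carry no molecular identifiers.

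Some genes of the lists and 1 knockout line are not reported here. Genes named are the members and, from the lists of other clock, clock output, and corepressor and receptor genes, every gene called. *Npas2* and *Tbl1xr1* were named after their values were seen, and marker lists are given by counts. The members and lists were chosen with earlier results of these data known. Alternatives were DESeq2 (1.42.0), TMM scaling, other filters, peaks within 10 kb, a replicate block and each library left out. The RNA test and the locus tests of H3K27ac in both lines and of PPARα in the *Gps2* line were checked on simulated data. The other tests use the same code and were not simulated.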

Additional observations from a re-analysis of the deposited data

Results flagged for a closer look

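In RNA-seq, *Dbp* in *Gps2* LKO library 2 stood at 120.1 CPM, apart from the nearest other LKO library at 159.2. Its gap was 0.884 of the group's range, above Dixon's 95% critical value for 4 samples. This was checked in 20 groups, of which chance flags about 1. The same library had a length slope of 0.074 against -0.068 to -0.16 in the other LKO libraries. Without that library *Dbp* was at 0.34 on the log2 scale (edgeR, adjusted p = 1.9e-05). Removal of the length trend left it at 0.26, against 0.27 as counted.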

How the results depend on the processing

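Over the RNA of single members, *Nr1d2* and *Cry2* turned from -0.0 and -0.05 to 0.30 and 0.20 with the length trend removed, where the median of all genes was 0.175. That setting called 11 other clock genes, 10 PER-arm genes and 6 endothelial markers. Without the filter or with the replicate block 1 lymphocyte marker was called, and DESeq2 called 1 endothelial marker. At the 10 clock genes the replicate block called 7, where it called 3029 of all 12567 genes higher and 2823 lower. The labels do not tie replicate numbers to shared animals or days. Deviations of same-numbered libraries correlated at 0.02 to 0.12 in RNA, at -0.11 to 0.25 for NCOR in the *Gps2* line and at -0.02 to 0.36 for NCOR in the *Ppara* line, and no comparison with 3 or more pairs had every pair over 0.1, so the numbers were not taken as pairs. With the replicate block, called loci and peaks were 2 and 5 for H3K27ac and 1 and 1 for H3K4me3 in *Gps2* LKO, 3 and 15 (from 0 and 0) for GPS2 in *Ncor* LKO, 1 peak for NCOR in *Ppara* KO and 0 peaks for PPARα in *Ppara* KO. For GPS2 in *Ncor* LKO the block called 2762 of all 14433 loci and 10495 of all 56278 peaks lower. For H3K27ac in *Gps2* LKO it called 718 of all 15930 loci higher and 124 lower. Of all 47109 H3K27ac peaks there it called 1997 higher and 471 lower. For H3K4me3 it called 396 of all 15157 loci higher and 76 lower. Of all 22814 H3K4me3 peaks it called 542 higher and 159 lower. In *Ppara* KO it called 105 of all 115042 NCOR peaks higher and 1867 lower, and 0 of all 40241 PPARα peaks. For PPARα in *Gps2* LKO, with the WT libraries counted as 1, neither a block nor leaving out a WT library could be run. With each WT library by itself 30 of 80 peaks were called, 29 of them higher, where 37518 of all 102519 peaks were called higher. Adding the replicate block to that fit, chosen after seeing the data, called 7 loci and 30 peaks. It called 11715 of all 18182 loci and 36977 of all 102519 peaks higher.

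DESeq2 called 2 loci for H3K27ac in *Gps2* LKO, 4 loci and 9 peaks in *Ncor* LKO, 2 peaks for GPS2 in *Ncor* LKO, and 0 peaks for NCOR in *Ppara* KO and 0 loci and 0 peaks for PPARα in *Gps2* LKO and *Ppara* KO. For H3K27ac it called 303 of all 15621 loci higher and 98 lower in *Gps2* LKO. In *Ncor* LKO it called 2476 of all 60805 H3K27ac peaks higher and 919 lower. TMM scaling called 1 locus for H3K27ac in *Ncor* LKO, 6 peaks for GPS2 in *Ncor* LKO, 0 peaks for NCOR in *Ppara* KO, 0 loci and 0 peaks for PPARα in *Gps2* LKO, 2 peaks in *Ncor* LKO, and 1 locus and 1 peak in *Ppara* KO. With filterByExpr 5 peaks were called for GPS2 in *Ncor* LKO, 0 for NCOR and 5 for PPARα in *Ppara* KO. That filter called 1698 of all 24882 GPS2 peaks in *Ncor* LKO and 7351 of all 7523 PPARα peaks in *Ppara* KO lower. Within 10 kb of the start 2 loci were called for H3K27ac in *Ncor* LKO, 3 for PPARα in *Gps2* LKO and 4 in *Ppara* KO. Over all loci so limited, 257 of 14549 and 2630 of 15281 were called higher in the first 2 comparisons. In *Ppara* KO 3502 of 8687 were called lower.

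Under TMM and DESeq2 the PPARα loci in *Gps2* LKO were -0.20 and -0.19 for *Cry2*, -0.03 and -0.03 for *Dbp*, -0.14 and -0.13 for *Nr1d1*, -0.12 and -0.11 for *Per2*, and -0.0 for *Nr1d2* under TMM. In *Ppara* KO they were 0.25 and 0.33 for *Arntl*, 0.77 and 0.84 for *Nr1d1*, 0.48 and 0.56 for *Per2*, 1.28 for *Dbp* under TMM, 0.01 for *Nr1d2* under DESeq2, and 0.05 for the *Per2* peak 22556 bases past the start under DESeq2. By their construction these scalings set the median of all loci, -1.09 for GPS2 in *Ncor* LKO, -0.89 for GPS2, -0.31 for NCOR and -1.71 for PPARα in *Ppara* KO and 0.56 for PPARα in *Gps2* LKO, near 0. With TMM the share of higher among all called loci went from 0.0% to 59.1% for GPS2 in *Ncor* LKO, from 0.0% to 43.2% for GPS2, from 3.1% to 43.8% for NCOR and from 0.1% to 22.0% for PPARα in *Ppara* KO, and from 99.8% to 63.9% for PPARα in *Gps2* LKO. The cause of the other shifts was not tested.

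Leaving out 1 library gave 5 to 7 of the clock genes, 4 to 8 other clock genes (8 without LKO 2), 5 to 9 of the PER arm, 3 to 6 Kupffer (3 without WT 2) and 1 to 4 endothelial markers. Without LKO 2, 3425 of all 12315 genes were called higher and 3545 lower. In ChIP-seq, leaving out 1 library gave 0 to 2 loci and 0 to 9 peaks for H3K27ac in *Ncor* LKO, 0 to 10 and 0 to 41 for GPS2 in *Ncor* LKO, 0 to 1 and 0 to 3 for NCOR in *Ppara* KO, and 3 to 7 and 0 to 2 for PPARα in *Gps2* LKO (3 and 0 without LKO 2). The 10 and 41 came from the fit without WT 3, in which 10748 of all 14433 loci and 33248 of all 56277 peaks were called lower. The 9 H3K27ac peaks came from the fit without *Ncor* LKO 2, in which 1817 of all 68817 peaks were called higher and 743 lower. H3K27ac in *Gps2* LKO and PPARα in *Ppara* KO had 2 libraries a group, so leaving out 1 could not test their calls. Depth and 2 or 3 libraries a group limit what the ChIP-seq comparisons could detect.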

Other observations

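The region over *Dbp* that the tables assign to *Sphk2* was also read for the other mark and line, having been picked after its values were seen. In the *Ncor* line its H3K27ac ran from 2623 to 2698 normalised tags over the 3 WT libraries and from 2487 to 3028 over the 3 LKO libraries, which lay on both sides of WT. H3K4me3 of the *Gps2* line lay between 2900.4 and 2956 over the WT libraries and between 2770.5 and 2804 over the LKO libraries. None of these was tested.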
